A study of Gossypium hirsutum with 12 samples.

Results

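Between 0 and 12 d post-anthesis (DPA), 135 of the 37500 genes in the deposited table of cotton RNA fell at least 8-fold from a mean of at least 50 normalized counts. A gene was a member of this set when its deposited mean at 12 DPA was one eighth or less of its deposited mean at 0 DPA. The members were thus chosen by these 2 means, and their falls are given as a description with no test. Of 13732 genes with a 0 DPA mean of at least 50, these 135 are 0.983%, the background share that the rule itself sets. For comparison, 715 of 13282 genes with a 12 DPA mean of at least 50 rose at least 8-fold, which is 5.38%. Which of the 2 counts is larger depends on the scaling: with both stages scaled to the same gene sum, 413 genes fell and 412 rose.

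RNA came from 6 lines of upland cotton, Gossypium hirsutum, sampled once at each stage, which makes 12 libraries. The wild-type lines were BCF (brown fiber), GCF (green fiber) and WCF (white fiber). The transgenic lines, labelled 5#, 6# and 24#, bore brown, green and white fiber and were progeny of 1 transgenic plant, #1, from brown cotton, which carried a hairpin RNAi construct for GhCHI-1, a gene for chalcone isomerase, under the CaMV35S promoter. The labels call the tissue cotton fiber at both stages, whereas the study's methods speak of ovules and fibers, so a change with age can include a change of tissue. In such bulk samples, fewer cells of a type and less RNA per cell cannot be told apart.

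At 0 DPA, the day of flowering, fiber cells begin to bulge from the outer layer of the ovule, and at 12 DPA they elongate and lay down a primary cell wall. The ovule itself goes on to form the seed, so RNA of several tissues changes over these days. Each gene ID names a gene model of the diploid relative Gossypium raimondii, in which the first number gives the chromosome and the second follows the order of genes along it. The study's annotation tables, of which only a part was used here, list 4597 gene IDs and pair 2156 of them with a cotton sequence record. They list 1 of the 135 members, Gorai.009G345000, and pair it with a microsatellite clone, so no member has a protein name here and the members are given by ID. These tables list genes that the study called differentially expressed. The listed IDs are thus no even sample of all genes, and names for members are few. Records named for fiber genes (expansins, arabinogalactan proteins, lipid transfer proteins, tubulins, sucrose synthases and E6) matched 36 IDs, whose means summed to 9701 normalized counts at 0 DPA and 198813 at 12 DPA. All 36 were higher at 12 DPA, and 0 of them were members. Another 2 IDs matched the names listed for ovule or seed and 1 those for photosynthetic tissue, again with 0 members, too few to judge the tissue. The 2 IDs matched for dividing cells had records of GaSIM clones, whose names are shown here only as far as cyclin-dependent protein ki. They were not read as markers of division. Both were higher at 12 DPA, with summed means of 6.72 normalized counts at 0 DPA and 752 at 12 DPA, and 0 were members.

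The deposited values are means over the libraries of a stage, not values per library. Every mean under 10 could be written as whole reads times the same 6 fixed steps of its stage, and each step stands for 1 library. The number of reads in each library was thus recovered for low genes, 10905 at 0 DPA and 10972 at 12 DPA. Libraries are numbered here 1 to 6 within a stage from the largest to the smallest size factor, the divisor that puts libraries on 1 scale. The numbers do not name lines, and library 1 at 0 DPA is not tied to library 1 at 12 DPA. The 0 DPA size factors spanned 0.487 to 1.67 and those of 12 DPA 0.770 to 1.30. If normalized gene totals were equal within a stage, a library of 0 DPA had 1482909 to 5075787 reads in genes and one of 12 DPA had 3748760 to 6309377. Alignments to several places, which were not counted on any gene, made up 87.0% of all normalized entries at 0 DPA and 48.2% at 12 DPA.

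Members spanned a wide range of levels at 0 DPA. Their 0 DPA means ran from 52.0 to 12569 normalized counts with a median of 116, close to the median of 124 for all 13732 genes with a mean of at least 50. At 12 DPA they had 0.589 to 1090 normalized counts with a median of 8.79, against 119 for all those genes. The median log2 fold change of the members was -3.60, or 12.1-fold lower, and that of all genes with a 0 DPA mean of at least 50 was -0.12. Falls of at least 16-fold numbered 44, of at least 32-fold 12 and of at least 64-fold 8. No member was listed at 0 at 12 DPA. Together the members held 1.62% of the normalized counts of all genes at 0 DPA and 0.0841% at 12 DPA, and 2 of them held 42.7% of the members' 0 DPA sum.

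**Figure D1:**
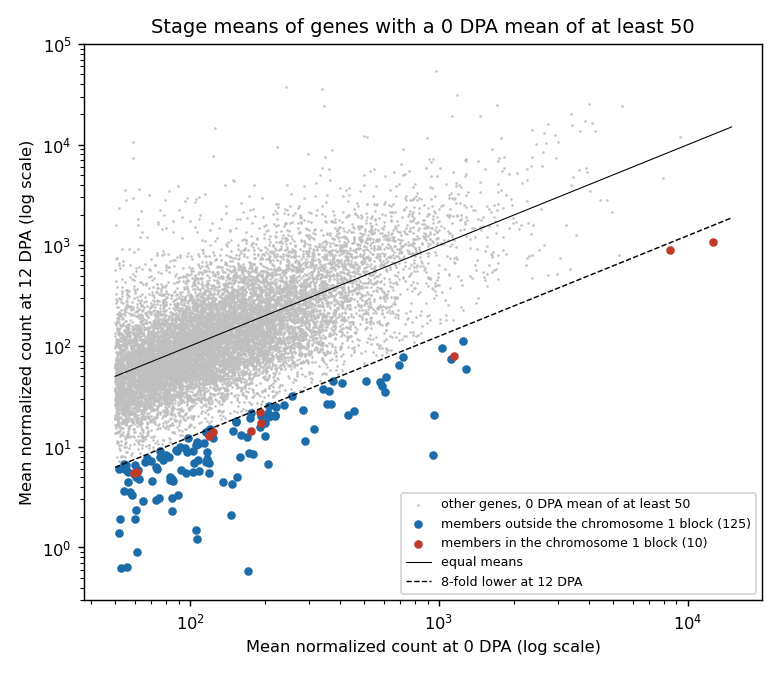
Mean normalized count at 12 DPA (vertical, log scale) against that at 0 DPA (horizontal, log scale) for genes with a 0 DPA mean of at least 50. The 135 members lie on or under the dashed line of an 8-fold fall, which the rule sets, and the 2 red points at the far right (12569 and 8494 at 0 DPA) stand apart from the other members in level.

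The values at the edges of the rule form a continuum. Just inside the fold limit, Gorai.004G151800 fell 8.01-fold, Gorai.003G112200 8.06-fold and Gorai.002G124400 8.09-fold. Just outside it, Gorai.009G292600 fell 7.98-fold, Gorai.001G164500 7.97-fold and Gorai.009G236400 7.96-fold. The lowest members at 0 DPA were Gorai.011G037700, Gorai.002G185800 and Gorai.001G004400, with 52.0, 52.1 and 52.5 normalized counts. Genes that fell as far but missed the minimum level began at 49.6 (Gorai.004G085000), 49.5 (Gorai.009G417300) and 49.2 (Gorai.004G230800).

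The 2 most abundant members lay among gene IDs with a mitochondrial record. Gorai.001G160400 had the highest mean of any gene at 0 DPA, 12569 normalized counts, and 1090 at 12 DPA. Gorai.001G163100 had 8494 and 905 normalized counts, falls of 11.5-fold and 9.39-fold. Both stayed among the abundant genes after the fall, at percentiles 98.1 and 97.7 of all genes at 12 DPA. Their IDs lie on chromosome 1 among IDs that the study's tables pair with the complete mitochondrial genome of upland cotton. Plant nuclear genomes hold stretches copied from the mitochondrial genome, which encodes parts of the respiratory chain and of the mitochondrial ribosome, and RNA of either origin can align to such a stretch.

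Of 19 IDs with that mitochondrial record, 18 lay between Gorai.001G160100 and Gorai.001G168300, a block of 83 consecutive IDs. All 18 IDs of the block that the tables list had this record and no other. This block was marked off after the values of the members had been seen. It held 10 members, none of them listed in the tables, so whether their own sequence is mitochondrial is not known here. After the top pair came Gorai.001G161500, which went from 1150 to 80.2 normalized counts. The other 7 (Gorai.001G161800, Gorai.001G161900, Gorai.001G162000, Gorai.001G162400, Gorai.001G163500, Gorai.001G165300 and Gorai.001G168000) had 59.4 to 193 normalized counts at 0 DPA and 5.52 to 22.2 at 12 DPA.

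Lower means at 12 DPA were common in the block, with exceptions among the IDs that have the mitochondrial record. Of the 18 IDs with that record 11 were lower and 7 higher at 12 DPA, and of the 65 without it 62 were lower, 1 was higher and 2 were listed at 0 at both stages. The 18 are also the only block IDs in the study's lists of differentially expressed genes. Having the record therefore cannot be told apart here from selection by expression. Of the 83 IDs, 32 had a 0 DPA mean of at least 50, and all 32 had a lower mean at 12 DPA, with a median log2 fold change of -2.71. Outside the block 54.1% of 13700 such genes were lower, with a median of -0.12. Members made up 31.2% of the 32 block genes and 0.912% of the 13700 others. The 22 block genes of that level that were not members had a median log2 fold change of -2.44. The 10 block members held 0.760% of all normalized counts at 0 DPA, nearly as much as the 0.860% held by the other 125 members.

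**Figure D2:**
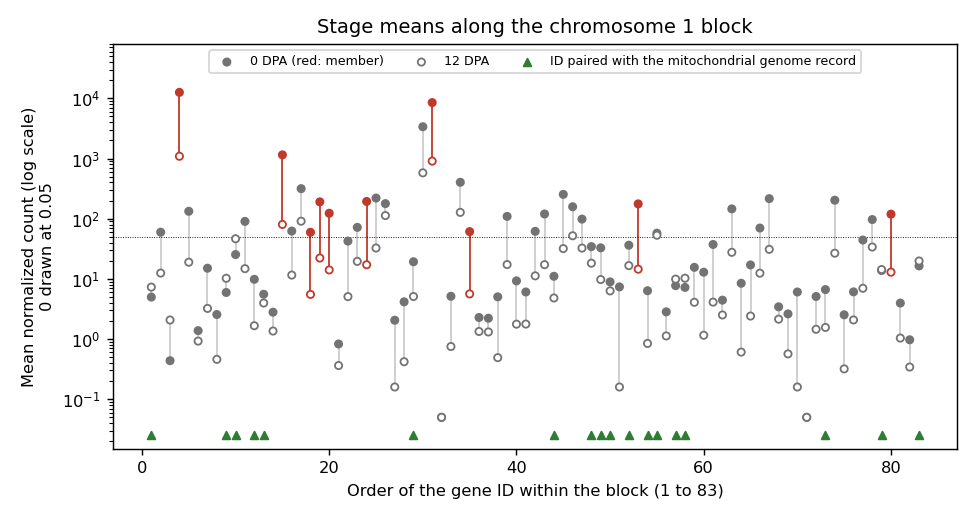
Mean normalized count (log scale) of each of the 83 gene IDs of the chromosome 1 block in ID order, at 0 DPA (filled) and 12 DPA (open), with members in red and the minimum of 50 as a dotted line. Green triangles mark the 18 IDs paired with the mitochondrial genome record, which lie between and around the 10 members, and 73 of the 83 genes are lower at 12 DPA.

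Reads per library could be recovered for 30 block genes with a 0 DPA mean of 2 to 10, and 1 library dominated them. Their reads in libraries 1 to 6 were 16, 16, 180, 60, 88 and 303, although library 6 had the smallest size factor. After division by the size factors, library 6 held 65.9% of their summed counts, and it was the highest library in 26 of the 30 genes. Among 4717 genes of the same level outside the block, library 6 held 18.6%, where an even split gives 16.7%. The 30 block genes together were 2.13-fold lower at 12 DPA with all 6 libraries of 0 DPA. Without library 6, left out because it was highest, their 0 DPA mean was 0.872 times the 12 DPA mean over all 6 libraries. Leaving out the highest library can only lower the 0 DPA side. The turned direction holds for the pooled sum, which includes IDs with the mitochondrial record. Among these, Gorai.001G160900, Gorai.001G165700 and Gorai.001G165800 rose and held 10.2, 9.90 and 10.3 of the 74.0 at 12 DPA. Others with it fell, such as Gorai.001G161200 (9.82 to 1.66). IDs without it, like the members, were not summed alone. At 12 DPA the counts of 19 block genes of this level lay mostly in libraries 3 and 4, with 27.8% and 26.6%.

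The 0 DPA means of the members themselves are too high for this recovery. How much of the fall of the 10 block members came from library 6 at 0 DPA was therefore not tested, nor was the part of the alignments to several places, whose share moved in the same direction. For 359 genes outside the block with a 0 DPA mean of 2 to 10 and a fall of at least 8-fold, library 6 held 26.8% and library 3 24.8% of the 0 DPA counts, against 18.6% and 21.3% in all 4717 genes outside the block. These 359 genes were chosen by the same 2 means as the members and are no independent measure of them.

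**Figure D3:**
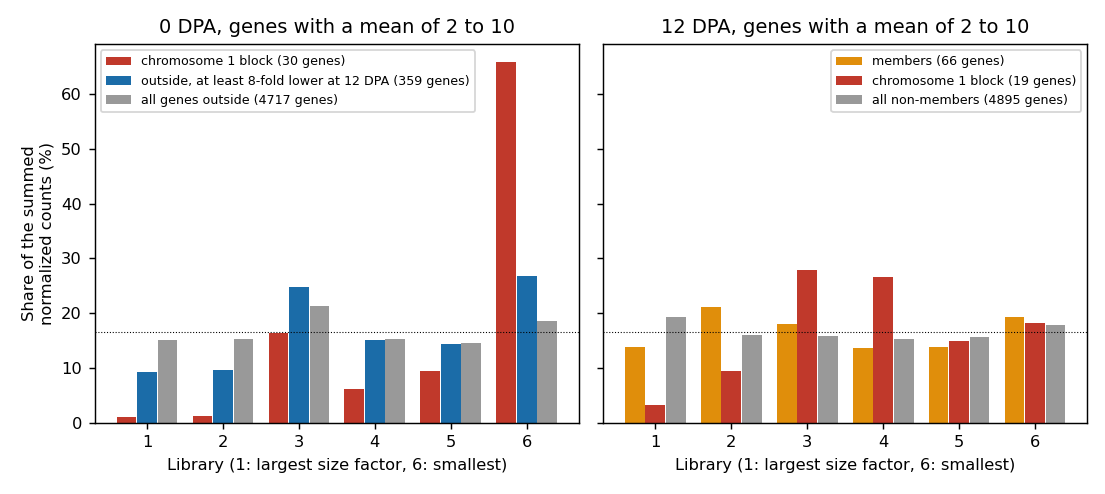
Share of the summed normalized counts (%, vertical) in each library of 0 DPA (left) and 12 DPA (right) for genes with a mean of 2 to 10 at that stage, with an even split of 16.7% as a dotted line. In the block genes at 0 DPA library 6 stands at 65.9%, while the 66 members in this range at 12 DPA spread over all 6 libraries, from 13.7% to 21.1%.

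Outside the block, the members with the highest levels at 0 DPA lost most of their RNA but stayed detectable. Gorai.002G079600 went from 1289 to 59.1 normalized counts and Gorai.013G017600 from 1254 to 113. Next in level, Gorai.003G177800 had 1115 and 74.97, Gorai.007G250500 1034 and 94.7, and Gorai.004G237500 718 and 78.6. These 5 fell 9.13-fold to 21.8-fold. Gorai.006G266200 fell further, from 958 to 20.9 normalized counts (45.8-fold).

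Gorai.002G005800 combined a high start with a near loss at 12 DPA. Its mean went from 943 to 8.34 normalized counts, 113-fold lower (95% Poisson interval of the 12 DPA reads 87.7-fold to 149-fold, counting error only). The 12 DPA reads in libraries 1 to 6 were 45, 6, 0, 2, 3 and 3. Library 1 thus held 69.4% of the normalized counts, and without it the fall was 308-fold.

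The deepest falls ended at a handful of reads. Gorai.009G095600 fell from 172 to 0.589 normalized counts, 291-fold lower (114-fold to 1070-fold by the same interval), with 4 reads at 12 DPA, 3 of them in library 1 and 1 in library 5. Gorai.010G255800 (55.8 to 0.645) and Gorai.006G249300 (52.7 to 0.619) also had 4 reads each, spread over 3 libraries. All 3 means were below 0.650, the floor set by 3 reads in the 12 DPA library with the smallest size factor, so the size of these falls is uncertain. Of the others with the largest falls, Gorai.006G030800 fell 87.9-fold on 8 reads, Gorai.004G232800 71.4-fold on 9 reads, Gorai.007G001500 69.9-fold on 13 reads, Gorai.002G185900 67.7-fold on 5 reads and Gorai.002G185800 37.2-fold on 7 reads. Only Gorai.007G001500 of these 5 had reads in all 6 libraries.

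Reads per library at 12 DPA were recovered for 75 members, those with a mean under 10, and 60 members with higher means were left without. The 75 had 4 to 61 reads each, with a median of 34 and 2435 in all. In 51 of them all 6 libraries had reads, in 12 members 5 libraries did, in 6 members 4, in 4 members 3 and in 2 members 2. Residual RNA was therefore seen in at least 2 libraries for each of the 75. Within the range of 2 to 10 normalized counts, 77.3% of 66 members had reads in all 6 libraries, against 71.1% of 4895 other genes. Summed over the 75 members, the libraries held between 13.6% (library 4) and 21.2% (library 2) of the normalized counts.

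Single libraries of 12 DPA were set against one eighth of the 0 DPA mean over all lines, since the 0 DPA value of the same line is not known here. In 34 of the 75 members each of the 6 libraries lay at or under one eighth of the 0 DPA mean. In the other 41 at least 1 library lay above it, while the mean over the 6 met the rule. With few reads a member, counting error alone can put the highest of 6 libraries above that level, and this was not tested. The 6 counts of Gorai.011G037700 lay within 2.06 to 9.09 normalized counts around a mean of 5.97, and its highest library held 25.4%. The highest library of a member held 33.6% of its counts at the median over the 75, and over 50% in 8 members.

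**Figure D4:**
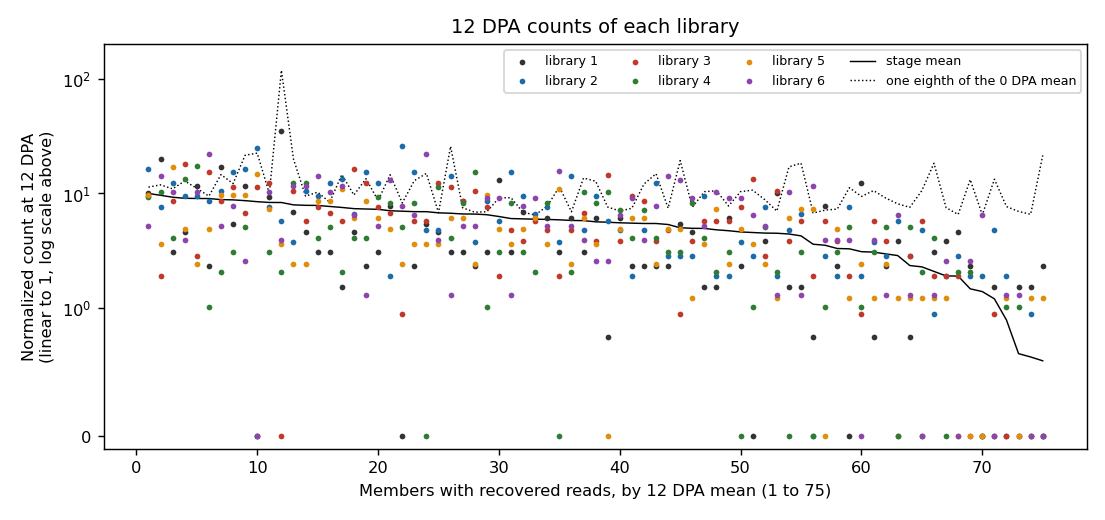
Normalized count at 12 DPA (vertical, linear up to 1 and log scale above) in each of the 6 libraries, as colored points, for the 75 members with recovered reads, ordered by their 12 DPA mean (black line). The dotted line is one eighth of each member's 0 DPA mean. In 41 members at least 1 point lies above the dotted line, and points at 0 gather among the members with the lowest means.

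Some members were carried by a few libraries at 12 DPA, examples picked after their values had been seen. Gorai.011G277400 had 26, 12 and 12 reads in libraries 2, 3 and 5 and 0 in the other 3. Each 0 allows up to 3 reads. Gorai.001G175300 had 27 of its 41 reads in library 2 and 0 in library 1, and Gorai.003G044300 had 16 of 22 reads in library 1. With 1 library per line and stage, a difference between lines and a difference between single samples cannot be told apart here.

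Some members lay side by side in the genome. By ID order, 11 of the 135 (8.15%) had another member within 2 IDs, in 5 runs of which the longest had 3 members (Gorai.001G161800, Gorai.001G161900 and Gorai.001G162000, all in the chromosome 1 block). Of the 13597 other genes with a 0 DPA mean of at least 50, 1.36% had a member within 2 IDs. Outside the block the shares were 6.40% of members (8 of 125) and 1.28% of the 13575 other genes.

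The 4 runs outside the block were pairs. Gorai.005G167700 and Gorai.005G167800 had 120 and 136 normalized counts at 0 DPA and 6.94 and 4.44 at 12 DPA. Their 12 DPA reads in libraries 1 to 6 were 7, 5, 6, 0, 3 and 17 for the first and 2, 5, 4, 0, 5 and 8 for the second. Both thus had 0 reads in library 4 and their highest count in library 6. In the pair Gorai.005G049500 and Gorai.005G049600 (103 and 55.4 normalized counts at 0 DPA, 6.95 and 5.82 at 12 DPA) library 2 was the highest for both, with 16 and 15 reads. For Gorai.002G185900 and Gorai.002G185800, which went from 61.5 and 52.1 to 0.909 and 1.40 normalized counts, libraries 1 and 3 had 0 reads of either. The pair Gorai.009G160900 and Gorai.009G161100 went from 201 and 174 to 12.7 and 19.5 normalized counts. Neighboring genes can be copies of each other, and reads that aligned to several places were not counted, so the levels of such pairs are uncertain.

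Genes next to members were lower at 12 DPA about as often as other genes. Outside the block, 90 genes with a 0 DPA mean of at least 50 lay directly beside a member without being one, and 50 of them (55.6%) were lower at 12 DPA, with a median log2 fold change of -0.07. For all 13700 genes of that level outside the block the values were 54.1% and -0.12.

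Members were found on all 13 chromosomes. Their share among genes with a 0 DPA mean of at least 50 ran from 0.426% on chromosome 8 (5 of 1175) to 2.23% on chromosome 1 (23 of 1033). Without the block, chromosome 1 had 13 of 1001 (1.30%), and chromosome 11 had the highest share with 1.44% (14 of 974).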

How the data were processed

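The authors checked reads with FastQC, trimmed them with Trimmomatic, aligned them to the Gossypium raimondii JGI_221_v2.1 genome with TopHat, counted them per gene with HTSeq and compared stages with DESeq. TopHat is version 2.0.13 in the submitters' processing notes. No source used here says whether counts used strand, so genes that overlap on opposite strands may share reads. The deposited signal is a mean over 6 libraries per stage of counts divided by size factors, although its column names say RPKM. The authors' fold changes and p-values, also in the file, were not used. The 5 summary entries of the counting tool were left out: reads without a gene were 6.78% of the 0 DPA total and 26.0% of the 12 DPA total, ambiguous reads 0.0368% and 0.184%, and alignments to several places 87.0% and 48.2%.

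Means under 10 were decoded into reads per library by finding all sums of 6 steps within 1.5e-09. Of 10920 such means at 0 DPA, 100% had a solution and 99.9% a single one, and of 10972 at 12 DPA 100% had a single one. Tested on simulated data of 37500 genes per stage, 10285 of 10285 single solutions were correct at 0 DPA and 10362 of 10362 at 12 DPA.

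Stage means leave no spread, so no difference between stages was tested. Dixon's critical value served only to find libraries far from the others. Members and lists were chosen with earlier results of these data known. Genes named are the 10 highest at 0 DPA, the 10 largest falls, the 5 highest at 12 DPA, those at the limits and those in runs. The part of this rule that asks for the spread at 0 DPA could not be applied, and examples by 12 DPA library were added after seeing the data. Intervals (95%) cover counting error only. Tools were Python 3.11.15, numpy 2.4.6, pandas 2.3.3, scipy 1.17.1 and matplotlib 3.10.9.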

Additional observations from a re-analysis of the deposited data

Results flagged for a closer look

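Values per library were checked for a single library far from the other 5 (a gap, as a share of the range, above Dixon's 95% critical value) in 27 sets of reported values, and 7 were found. For normally distributed values chance gives about 1 in 20, but these are low read counts with zeros, and some of the genes were named because 1 library held a large share of their counts, so that rate is no baseline here. In the summed counts of the 30 low block genes at 0 DPA, library 6 had 622 normalized counts, against 9.60 to 154 in the others. At 12 DPA, Gorai.002G005800 had 34.7 normalized counts in library 1, Gorai.003G044300 12.3 in library 1 and Gorai.005G167700 22.1 in library 6. Gorai.006G030800 had 4.76 in library 2, Gorai.005G049600 14.3 in library 2 and Gorai.002G185800 6.50 in library 6, each the highest of its 6. Over all 75 members with recovered reads, 10 had such a library.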

How the results depend on the processing

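The number of members follows the limits of the rule. With a minimum 0 DPA mean of 10 in place of 50 there were 361 genes, with 100 there were 81 and with no minimum 2208, while a 4-fold limit gave 658 and a 16-fold limit 44. Scaling each stage by its gene sum lowers every log2 fold change by 0.68 (a shift of -0.68) and gave 413 genes, all 135 members among them. Adding 1 to both means left 120. The members' share of the 0 DPA gene sum, 1.62%, was 4.47% with stage-sum scaling, 6.25% at 4-fold, 0.294% at 16-fold and, in an alternative chosen after seeing the data, 0.860% without the chromosome 1 block. Their median log2 fold change was -4.28 with stage-sum scaling and -3.62 without the block. Within 5 gene IDs, 19.3% of the members had another member. A tolerance 10 times stricter for whole reads, which is below the rounding of the deposited values, left reads for 21 of the 75 members, and one 10 times looser for 73. Leaving out each library in turn was not run, because members' 0 DPA means could not be decoded. No paired analysis was possible because each deposited mean pools all 6 lines of a stage, and no count test could be made for the same reason. Low read numbers limit 8 of the 10 largest falls, which rest on 4 to 13 reads at 12 DPA.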
